A study of Mus musculus with 36 samples.

Results

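The regions described here were stretches of open chromatin called in the phalanges of all 3 hindlimb digits studied and nearly absent from the peak lists of the other autopod elements. They were chosen by their calls. Peaks of 12 lists were merged wherever they shared at least 1 bp. A merged region was kept when all 3 foot phalanges lists called it and at most 1 of the other 9 lists did. This left 712 of 65543 merged regions, or 1.09% of them, and they are called foot phalanx regions below. The contrast of foot phalanges with the other lists is therefore a description of the choice and was not tested.

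Chromatin accessibility was assayed with ATAC-seq, where a transposase inserts sequencing tags into DNA that is not tightly packed, in tissue labelled as chondrocytes from FVB/NJ mouse embryos of stage E15.5. The 36 libraries formed 12 groups of 3: foot phalanges, hand phalanges, metatarsals and metacarpals, each from digits I, III and V. All groups shared the strain and the age, and no mutant allele, transgene or treatment is named for any of them. Each library pooled the left and right elements of 3 to 5 littermates, which gave 6 to 10 limbs, and was to be sequenced to at least 40 M reads. The phalanges of a digit were pooled too, so that proximal and distal bones of digit I, and proximal, intermediate and distal bones of digits III and V, entered 1 library. The authors deposited 1 peak list per group, called on pooled libraries. No value per library was analysed here, so no error between replicates can be given, and depth per library is unknown.

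The phalanges and metapodials are laid down as cartilage templates that chondrocytes later enlarge and that bone replaces. Whether a limb bud becomes a forelimb or a hindlimb is known to depend on transcription factor genes such as Tbx5 in the forelimb and Pitx1 and Tbx4 in the hindlimb, and the distal skeleton on the posterior Hox genes. Open chromatin away from gene starts often marks enhancers, which raise transcription of a gene that may lie far away. An open region shows that the transposase could reach the DNA and does not by itself show which gene, if any, it acts on.

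The labelled cell type was checked at fixed marker genes. Peaks lay at the gene start (at either end of a gene where the promoter table lists no start) in all 3 foot phalanges lists for 6 of 8 chondrocyte markers, among them Sox9, Col2a1 and Acan, while Sox5 had none in any list and Matn1 had one in 2 of the 3. The same count was 2 of 3 for tendon markers, 1 of 4 for skeletal muscle, 1 of 4 for endothelium, 1 of 3 for blood, 1 of 4 for epidermis and 3 of 3 for nerve and Schwann cells. Pecam1 and Tie1 of endothelium, Ptprc and Gata1 of blood, and Krt5, Krt14 and Trp63 of epidermis had no peak at the start in any foot phalanges list, and neither did Tnmd or Acta1. Kdr of endothelium, Spi1 of blood and Epcam of epidermis had one in all 12 lists, and Cdh5 of endothelium in 1 foot phalanges list. Around the marker genes of the other cell types, within 10 kb of the gene body, there was no foot phalanx region. A peak at a start does not show expression, and what other cells in the dissected elements add to the foot phalanx regions was not tested.

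Only a few foot phalanx regions covered the start of a protein-coding gene, and for those the DNA under the peaks can be shown. Where the summits of all 3 foot phalanges lists fell inside the annotated promoter of a protein-coding gene, 7 promoters qualified, those of Celf2, Dlg4, Gja5, Ifitm1, Tmem106a, Tmem108 and Trpm1. The sequences below are the promoters of the 3 genes whose region was called in no other list, and that of Ifitm1, the one with more than a single transcription factor motif among those searched. Each runs 5′ to 3′ along the gene's own strand from 250 bases before to 50 after the start (RefSeq, GRCm38.p6), and the capitals span the stretch from the first to the last of the 3 foot phalanges summits. Gja5, which encodes the gap junction protein connexin 40, has its promoter at chr3:97032152-97032451 on the plus strand, Trpm1, which encodes a cation channel of retinal bipolar cells and melanocytes, at chr7:64185209-64185508 on the plus strand, Tmem108, which encodes a transmembrane protein, at chr9:103692758-103693057 on the minus strand, and Ifitm1, an interferon-induced transmembrane protein gene, at chr7:140967826-140968125 on the plus strand.
Gja5: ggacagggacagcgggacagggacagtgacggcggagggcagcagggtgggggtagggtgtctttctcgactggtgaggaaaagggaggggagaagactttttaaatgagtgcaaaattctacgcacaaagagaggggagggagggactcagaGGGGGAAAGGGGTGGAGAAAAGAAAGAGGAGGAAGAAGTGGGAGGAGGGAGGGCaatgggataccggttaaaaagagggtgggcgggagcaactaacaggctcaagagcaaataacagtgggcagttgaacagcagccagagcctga
Trpm1: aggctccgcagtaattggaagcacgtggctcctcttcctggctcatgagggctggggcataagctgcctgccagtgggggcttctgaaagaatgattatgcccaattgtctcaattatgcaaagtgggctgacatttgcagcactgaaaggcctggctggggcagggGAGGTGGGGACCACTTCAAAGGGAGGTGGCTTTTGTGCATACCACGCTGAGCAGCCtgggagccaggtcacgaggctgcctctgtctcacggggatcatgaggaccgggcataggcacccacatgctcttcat
Tmem108: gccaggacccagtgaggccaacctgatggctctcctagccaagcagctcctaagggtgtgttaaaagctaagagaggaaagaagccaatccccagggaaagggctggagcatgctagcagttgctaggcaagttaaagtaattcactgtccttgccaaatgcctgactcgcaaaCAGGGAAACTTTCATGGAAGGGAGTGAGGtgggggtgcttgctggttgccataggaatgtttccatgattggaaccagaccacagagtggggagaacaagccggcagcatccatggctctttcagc
Ifitm1: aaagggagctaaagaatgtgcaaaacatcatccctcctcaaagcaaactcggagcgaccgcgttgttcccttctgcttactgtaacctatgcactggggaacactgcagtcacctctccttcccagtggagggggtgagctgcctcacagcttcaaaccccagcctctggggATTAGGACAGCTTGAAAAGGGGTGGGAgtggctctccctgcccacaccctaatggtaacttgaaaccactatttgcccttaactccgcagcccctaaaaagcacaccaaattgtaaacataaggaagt

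In the promoters shown the summits of the 3 digits all lay before the start. As promoters were picked for holding all 3 summits, a place close to the start and to each other follows largely from the choice. At Tmem106a, which also qualified, the summits stood at 3, −44 and 20 bases from the start in digits I, III and V. At Gja5 the summits stood 97, 44 and 97 bases upstream in digits I, III and V. At Trpm1 they stood 28, 80 and 83 bases upstream, at Tmem108 48, 50 and 76 bases upstream, and at Ifitm1 52, 75 and 78 bases upstream. The Ifitm1 promoter holds GGATTA, the core letters bound by PITX factors. It also holds TGTTTAC, those bound by forkhead factors, on the opposite strand, so that the strand shown reads GTAAACA. The Tmem108 promoter holds GGAATG, the letters bound by TEAD factors, and the Gja5 and Trpm1 promoters hold none of the 11 motifs searched. The first region, at Gja5, reached −log10 p of 38.6, 42.3 and 30.8 in digits I, III and V, and the Trpm1 region 53.2, 54.5 and 43.5. These are the peak caller's significance values for a peak, as the authors deposited them. They are used here to describe and rank peaks within a list and, below, to compare where the lists ended. Depth per library is unknown, so the same value in different lists need not mean the same stringency.

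By the same rule the other classes gave fewer regions from the lists as deposited. Foot phalanges had 712, against 48 for hand phalanges (0.0732% of merged regions), 250 for metatarsals (0.381%) and 280 for metacarpals (0.427%). Of the 712, 323 (45.4%) were called in no other list and 389 (54.6%) in 1 other list. With no other list allowed, foot phalanges had 323 regions (0.493% of all), against 7 (0.0107%) for hand phalanges, 63 (0.0961%) for metatarsals and 78 (0.119%) for metacarpals. All 3 foot phalanges lists together called 31660 regions, of which 23353 were called in all 12 lists.

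**Figure D1:**
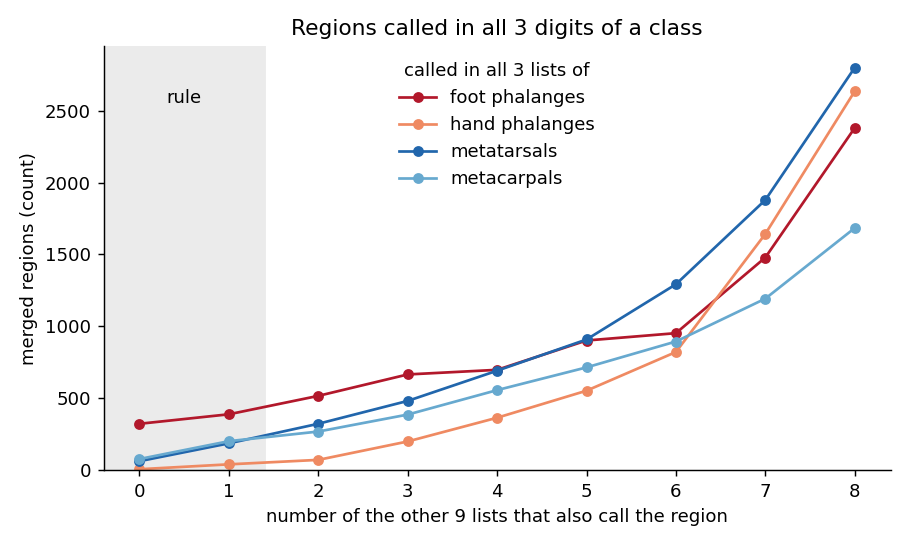
Number of merged regions (vertical axis, count) called in all 3 lists of a class, by how many of the other 9 lists also called them (horizontal axis), with 1 line per class and the range kept by the rule shaded. At 0 other lists foot phalanges had 323 regions, against 7, 63 and 78 for hand phalanges, metatarsals and metacarpals, and the foot phalanx line rises without a break through 389 at 1 and 517 at 2 other lists.

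The lists ended at different −log10 p, and the size of this set changed when they were cut alike. What lies behind the different ends was not tested. The foot phalanges list of digit I kept peaks down to a −log10 p of 31.0, whereas the other lists of digit I ended between 41.5 and 49.6. In digit III the foot phalanges list ended at 35.5 and the others between 34.8 and 36.4, and in digit V at 28.6 and between 23.0 and 32.3. Of the 712 regions, 187 (26.3%) stood above the highest threshold of the other digit I lists in the foot phalanges digit I list, against 679 (95.4%) for digit III and 581 (81.6%) for digit V. A total of 162 regions (22.8%) did so in all 3 digits, and 52 (7.30%) stood above 49.6, the highest threshold of any list, in all 3. So for most foot phalanx regions the digit I peak would not have been kept had its list ended where the shortest-reaching of the other digit I lists did, and absence from another list need not mean closed chromatin.

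The lead of foot phalanges over the other classes also changed when the lists were cut. With all lists limited to the highest threshold of their digit, a comparison added after the data were seen, foot phalanges had 223 regions, against 79 for hand phalanges, 294 for metatarsals and 161 for metacarpals, so that metatarsals then had more. With 1 threshold for all lists, also added afterwards, foot phalanges had 193, against 78, 139 and 60. With lists cut to the same number of peaks, foot phalanges had 511, against 81, 227 and 450. Without the hand phalanges list of digit I, which ended at 48.5, foot phalanges had 913 regions and hand phalanges 526. The rule then asked for calls in the remaining hand phalanges lists only, so it was looser and a higher count follows in part from that. Metacarpals likewise had 1321 regions without their own digit I list. Of the 712 regions, 187 were kept with lists of equal length, 162 at the common threshold within each digit, and 78 under both. Those 78 included 20 called in no other list.

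**Figure D2:**
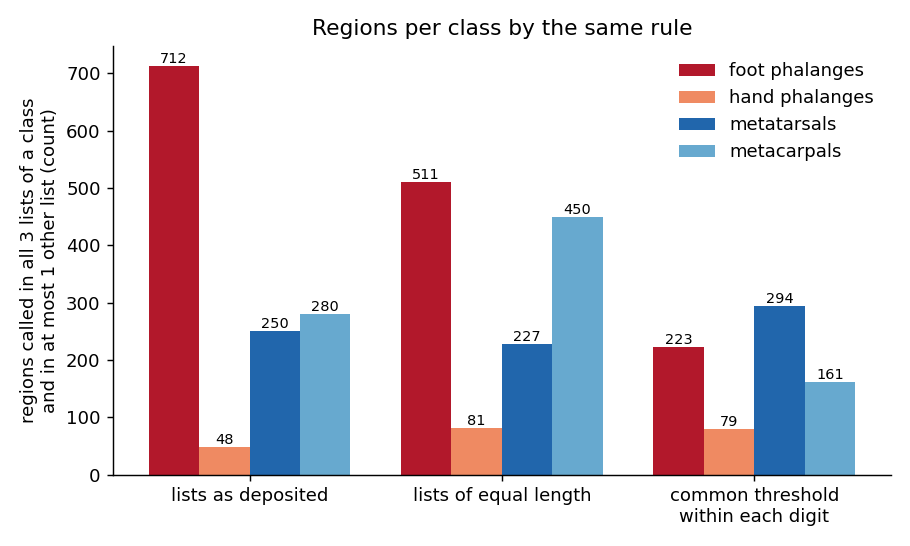
Regions called in all 3 lists of a class and in at most 1 other list (vertical axis, count), for lists as deposited, lists of equal length and a common threshold within each digit, with 1 bar per class. Foot phalanges lead with 712 and 511 regions in the first pair of groups, while at the common threshold they have 223 and metatarsals 294.

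Regions just outside the rule were numerous and looked like those inside it. A further 517 regions were called in all 3 foot phalanges lists and in exactly 2 others, so that a rule allowing 2 would have kept 1229 (1.88%). Another 1433 were missing from a single foot phalanges list and met the rest of the rule, 638 of them missing only from digit I, 411 from digit III and 384 from digit V. Median width was 1861 bp for regions in no other list, 2085 bp for those in 1 and 2206 bp for those in 2. The median of the lowest percentile rank over the 3 foot phalanges lists (0 for the least and 100 for the most significant peak of a list) was 8.20, 11.6 and 12.2 for the same 3 sets.

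Foot phalanx regions were weak peaks in their own lists. Their median percentile rank was 18.1, 18.7 and 20.5 in digits I, III and V, against 69.3, 74.9 and 70.3 for regions called in all 12 lists. The highest rank any of them reached was 51.2, 59.2 and 59.7, and 1, 3 and 9 regions passed rank 50. The median fold enrichment, a linear ratio given by the peak caller, was 6.96, 6.14 and 6.00, and the median −log10 p was 41.2, 49.5 and 40.2. Regions chosen in the same way for the other classes also ranked low, apart from metacarpals in digit III, where the median rank was 38.4. Low ranks were thus found in regions of all 4 classes.

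**Figure D3:**
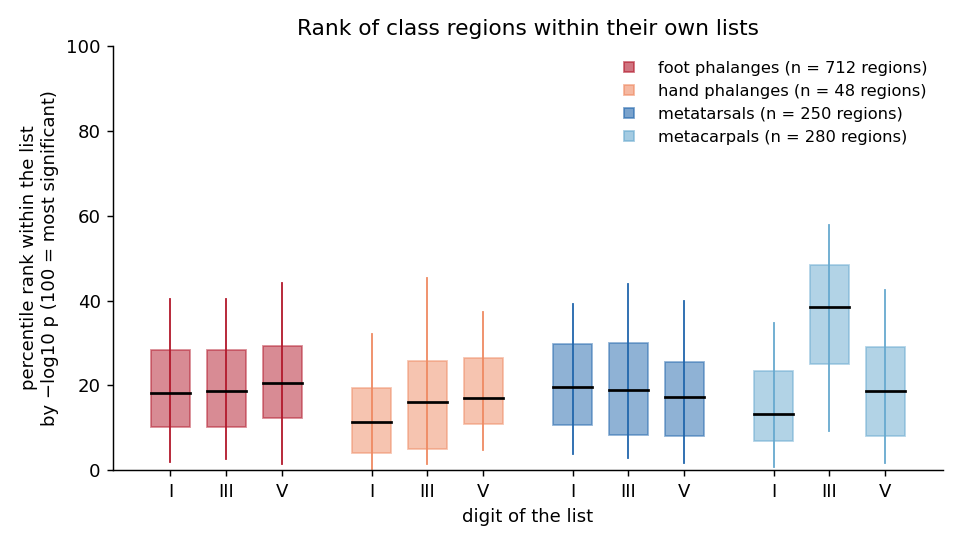
Percentile rank of the regions of each class within their own 3 lists (vertical axis, 100 for the most significant peak), by digit, where the line is the median, the box the quartiles and the whiskers the 5th and 95th percentiles. Foot phalanx regions have medians of 18.1, 18.7 and 20.5, and metacarpals of digit III stand higher, at 38.4.

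Within a region the digits did not rank it alike. The rank was highest in digit I for 220 regions, in digit III for 223 and in digit V for 269. Across the 712 regions Spearman's rho of the ranks was 0.193 between digits I and III, 0.256 between I and V and 0.283 between III and V, a description over regions that all had to pass a threshold in each list. The place of the peak was more alike than its rank. The 3 summits of a region spanned a median of 67.5 bp, and 587 regions (82.4%) had all 3 within 200 bp, against 87.2% of the regions called in all 12 lists. Median width was 2013 bp (range 451 to 7639), against 3668 bp for regions in all 12 lists.

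The rule allowed at most 1 call among the other 9 lists but treated them alike, so it did not fix which of them shared a region. Of the 389 regions called in 1 other list, 221 (56.8%) were shared with hand phalanges, 155 (39.8%) with metatarsals and 13 (3.34%) with metacarpals. By digit, 228 (58.6%) were shared with a digit I list, 90 (23.1%) with digit III and 71 (18.3%) with digit V. The metatarsal list of digit I held 123 of them and the hand phalanges list of digit I held 104, while the metacarpal lists of digits I and V held 1 each.

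Per 10000 regions that a list called, the hand phalanges lists held 28.3, 15.7 and 15.1 foot phalanx regions in digits I, III and V. The metatarsal lists held 27.8, 3.35 and 5.21, and the metacarpal lists 0.293, 2.20 and 0.280. The metatarsal list of digit I lay inside the range of the hand phalanges lists, and the other 5 metapodial lists all lay below it. Hand phalanges averaged 19.7 ± 7.43 (SD, n = 3 lists) and metapodials 6.52 ± 10.6 (n = 6), a difference of 13.2 that did not pass a two-sided exact permutation test over lists (p = 0.119, Benjamini-Hochberg adjusted over 2 comparisons 0.238; the smallest p the 84 splits allow is 0.0238). In each of the 3 digits hand phalanges were the highest, and a comparison within digits, added after the data were seen, gave an exact permutation p of 0.0741, the smallest its 27 splits allow. The rule that chose the regions had capped these calls, and a region can count for 1 of these lists alone. The values of the lists are thus not independent of each other, and regions shared with more than 1 other list are left out. These p-values therefore describe the chosen regions and are no independent support for a difference. Without the metatarsal list of digit I the rule chose 1023 regions, with 35.2 in hand phalanges and 9.21 in metapodials (exact permutation p = 0.0357, adjusted 0.0714). Leaving out that list let in regions it had shared with 1 other list. These were 84, 58 and 32 with hand phalanges of digits I, III and V, 36 and 63 with metatarsals of digits III and V, and 11, 16 and 5 with metacarpals. The higher values thus follow in part from the rule, and this p-value is a description too. Metatarsals, the hindlimb metapodials, averaged 12.1 ± 13.6 (n = 3) and the 6 forelimb lists 10.3 ± 11.3 (SD), a difference of 1.81 (exact permutation p = 0.738, adjusted 0.738), and its sign turned in 5 of the alternatives. The forelimb lists joined hand phalanges and metacarpals, so this comparison does not separate limb from element. In each digit the metatarsal list stood below the hand phalanges list and above the metacarpal list. Metatarsals against metacarpals alone were not tested.

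**Figure D4:**
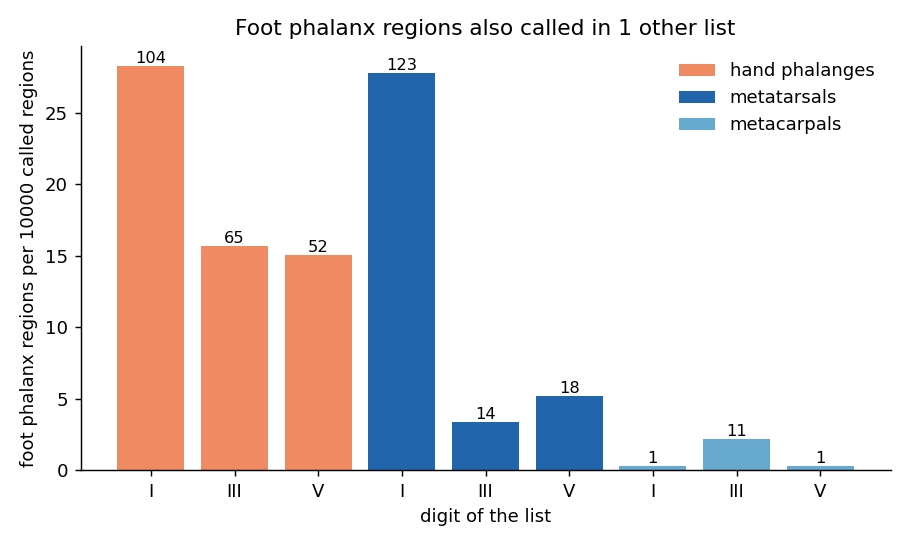
Foot phalanx regions shared with each of the other 9 lists, per 10000 regions that the list called (vertical axis), by class and digit, with the number of regions above each bar. The metatarsal list of digit I, at 27.8, is as high as hand phalanges of digit I at 28.3, and the other metapodial lists stand at 5.21 or lower.

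Among the 517 regions called in 2 other lists, which lie just outside the rule, the metatarsal list of digit I was again the most frequent partner, in 305 (59.0%). The hand phalanges lists followed with 191, 186 and 113 in digits I, III and V, and the metacarpal list of digit V was last with 9. The most frequent pair, with 84 regions, was hand phalanges and metatarsals of digit I.

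Foot phalanx regions lay far from the starts of protein-coding genes. Of 686 on chromosomes covered by the promoter table, 17 (2.48%, 95% Wilson interval 1.55 to 3.93) were within 1 kb of an annotated start of a protein-coding gene, against 2.23% (1.90 to 2.62) of other regions called in 3 or 4 lists, 18.04% of all regions and 45.3% of those called in all 12. The share was thus near that of other regions called in few lists. With RefSeq gene positions, 315 foot phalanx regions (44.2%, 40.6 to 47.9) had their centre inside a protein-coding gene, against 49.1% (47.9 to 50.3) of other regions in 3 or 4 lists. The median distance to the nearer end of the nearest protein-coding gene was 49.9 kb, against 35.8 kb for other regions in 3 or 4 lists and 2.36 kb for regions in all 12, and 17 regions (2.39%) were over 500 kb away. Regions chosen by the same rule lay as far in hand phalanges (54.0 kb) and metatarsals (58.0 kb), and at 41.2 kb in metacarpals. The X chromosome held 4 of the 712 (0.562%, 0.219 to 1.44), against 1.89% (1.59 to 2.25) of other regions in 3 or 4 lists, and against 0 of 48 hand phalanges regions, 0.400% of metatarsal regions and 1.79% of metacarpal regions. Regions are not replicates, and the intervals cover counting error only.

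**Figure D5:**
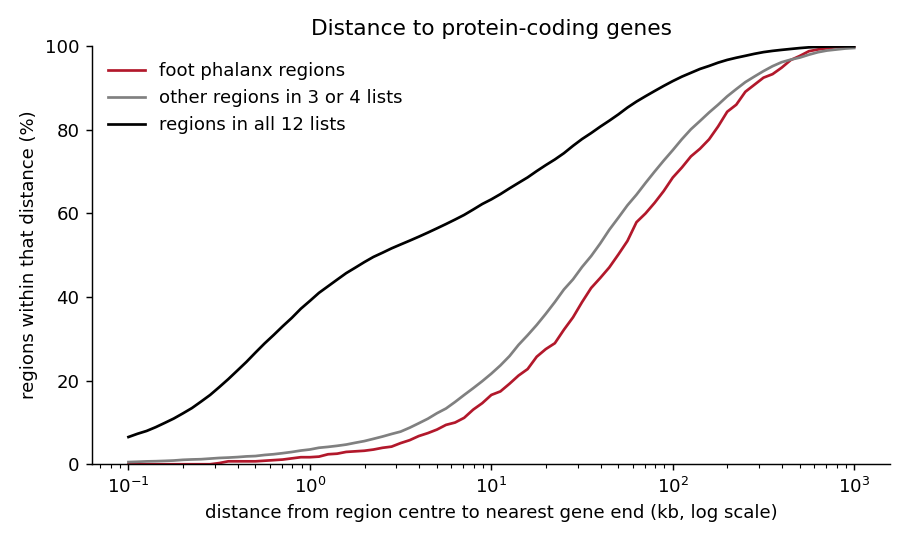
Share of regions (vertical axis, percent) whose centre lies within a given distance of the nearest end of a protein-coding gene (horizontal axis, kb, log scale). The foot phalanx line lies to the right of other regions in 3 or 4 lists (medians 49.9 and 35.8 kb) and far to the right of regions in all 12 lists (median 2.36 kb).

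Most foot phalanx regions stood alone. The median distance from one to the next was 629.6 kb, while the nearest region called in all 12 lists was a median of 31.9 kb away. When regions within 100 kb of each other were joined, 605 stood alone, 41 runs held 2 regions, 7 held 3 and 1 held 4. The run of 4 spanned 160.3 kb at chr9:60925071-61085408, nearest to Uaca. Among the runs of 3 were one of 45.1 kb nearest to Fat4, which encodes a giant protocadherin of the planar polarity pathway, one of 84.4 kb nearest to Sall1 and one of 118.1 kb nearest to Epha4, which encodes an ephrin receptor.

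Regions were then given to whichever protein-coding gene ended or began closest to their centre, within 1 Mb, which is a statement of position and not of regulation. The regions fell to 622 genes, of which 67 had 2 or more and 14 had 3 or more. The 14 gene lists, which hold 204 genes in all, were near 25 foot phalanx regions (3.51%), against 1729 of all merged regions (2.64%). The share to set a list's count against is 1.09%, that over all merged regions, and no list was tested.

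Among the limb identity genes, 2 of 55 regions were foot phalanx regions (3.64%, 95% Wilson interval 1.00 to 12.3). One lay at chr15:102975417-102978047 in the HoxC cluster, between genes and 0.3 kb from an end of Hoxc9, a cluster whose posterior genes are known for hindlimb expression. Its −log10 p was 43.0, 37.7 and 46.8 in foot phalanges of digits I, III and V, and it was also called in metatarsals of digit I. Of the other 2 regions at Hoxc9, both were called in each foot phalanges list, against 1 in each hand phalanges list, 2, 2 and 1 in metatarsals, and 1, 1 and 0 in metacarpals of digits I, III and V. The other lay at chr5:119891136-119892740, 6.7 kb from Tbx5, the forelimb identity gene, with −log10 p of 46.6, 42.3 and 37.0, and was shared with hand phalanges of digit I. Of the other 12 regions at Tbx5, foot phalanges had 6, 6 and 8 called, against 10, 6 and 5 in hand phalanges, 7, 3 and 3 in metatarsals and 8, 6 and 5 in metacarpals. Neither region was kept with lists of equal length or at the common threshold within each digit.

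The hindlimb genes Pitx1 and Tbx4 had no foot phalanx region. Pitx1 had 5 of its 6 regions called in each foot phalanges list, against 3, 3 and 2 in hand phalanges, 4, 4 and 3 in metatarsals, and 2, 3 and 1 in metacarpals. Tbx4 had 7, 6 and 7 of 8 called in foot phalanges, against 5, 4 and 4 in hand phalanges, 5 in each metatarsal list, and 5, 4 and 3 in metacarpals. In both genes every foot phalanges list called more regions than any other list. Hoxc10 had 2 regions and none of the kind described here, and the posterior HoxA and HoxD list had 0 of 7, which with so few regions allows a share of up to 42.9%. No merged region was assigned to Hoxd13 and 3 to Hoxa13.

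The genes of distal and digit patterning were near 8 of 329 regions (2.43%, 1.24 to 4.72). Sall1, a zinc finger gene that in humans is mutated in Townes-Brocks syndrome with thumb defects, had 3 of them in the run named above, 424.5, 479.4 and 507.5 kb from its nearer end. Their −log10 p in digits I, III and V was 47.5, 48.7 and 50.3 for the region at chr8:89467880-89469489, 48.5, 54.5 and 58.2 for the next and 41.2, 44.7 and 44.3 for the last. The first was shared with hand phalanges of digit III and the other pair with no list. None of the 3 was kept at the common threshold or with lists of equal length.

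Msx1, which encodes a homeodomain protein of the limb tip, had 1 region 93.4 kb away at chr5:37916277-37919782, with −log10 p of 58.0, 52.8 and 77.0, shared with hand phalanges of digit I. Meis2, a homeobox gene known for the proximal limb, had 1 inside the gene at chr2:115868662-115870055, with 55.1, 60.4 and 62.8 and no call elsewhere. The Meis2 region was among the 2 near listed genes that were kept under both stricter settings, the other being that at Sox5. Gli3, the transcription factor of hedgehog signalling whose loss gives extra digits, had 1 inside the gene, with 40.3, 60.4 and 51.1, shared with metatarsals of digit I. Irx5 had 1 at 144.7 kb and Meis1 1 at 414.4 kb, and both were weak in digit V, with −log10 p of 31.6 and 30.8.

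Growth factor signalling genes were near 7 of 394 regions (1.78%, 0.863 to 3.62). Bmpr1b, a BMP receptor whose human mutations cause brachydactyly, had 2 inside the gene. The one at chr3:141922982-141924486 had −log10 p of 73.1, 70.2 and 32.3 and was shared with hand phalanges of digit III, and the one at chr3:142013444-142015024 had 32.6, 37.7 and 46.0 and was called in no other list. The other 18 regions at Bmpr1b were called in overlapping numbers in the 4 classes, with 10, 12 and 7 in foot phalanges, against 10, 9 and 7 in hand phalanges, 10, 12 and 9 in metatarsals and 9, 14 and 10 in metacarpals. Ror2, a WNT5A receptor also mutated in human brachydactyly, had 2 inside the gene, neither called elsewhere. At chr13:53182018-53184255 the Ror2 region had 44.8, 42.3 and 61.0, and at chr13:53204798-53206825 it had 62.9, 42.3 and 52.9, of which the second was kept at the common threshold. Of the other 23 regions at Ror2, foot phalanges had 12, 15 and 14 called, against 15, 14 and 13 in hand phalanges, 18, 11 and 12 in metatarsals and 14, 13 and 11 in metacarpals. Both receptors act in the growth of digit cartilage, and for both the foot phalanges lists overlapped the others in number of called regions.

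Single regions lay near Fgf9, Sfrp2 and Igf1. The Igf1 region, inside this growth factor gene at chr10:87865661-87870079, had −log10 p of 38.6, 52.8 and 54.6, with no other list. Of the other 5 regions at Igf1, 2, 5 and 4 were called in foot phalanges, against 3, 1 and 1 in hand phalanges, 3, 2 and 1 in metatarsals and 2, 2 and 1 in metacarpals. The digit I list of foot phalanges thus had fewer than the digit I lists of hand phalanges and metatarsals, while digits III and V had more than any other list. Sfrp2, a secreted WNT antagonist, had its region 125.6 kb away with 60.9, 36.2 and 39.4, and Fgf9, a ligand of cartilage growth, at 494.6 kb with 31.0, 51.1 and 40.2.

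Cartilage genes gave a single such region, which at these counts cannot be told from the share of 1.09% over all regions. Of 251 regions near genes of resting and proliferating chondrocytes, 1 qualified (0.398%, 0.0704 to 2.22), inside Sox5, which with Sox6 assists SOX9. It lay at chr6:144462676-144467300, with −log10 p of 54.1, 77.5 and 46.8, and was shared with hand phalanges of digit V. Joint genes had 0 of 199, which allows up to 1.51%, and hypertrophic chondrocyte genes 0 of 116, up to 2.59%. So Sox9 with 31 regions, Col2a1 with 3, Acan with 9, Gdf5 with 2 and Col10a1 with 3 held none. Perichondrium and osteoblast genes had 2 of 65 (3.08%). Twist2, a basic helix-loop-helix gene, had one of these at 41.1 kb, with −log10 p of 31.8, 58.7 and 32.3.

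Lists of other cell types had 0 to 2 such regions each. Tendon genes had 0 of 59 (up to 5.08%) and skeletal muscle genes 0 of 58 (up to 5.17%). Endothelial genes had 2 of 84 (2.38%, 0.655 to 8.27), at 180.0 kb from Cdh5 and 52.4 kb from Flt1. Blood genes had 1 of 74 (1.35%, 0.239 to 7.27), near Runx1. Epidermis and nail genes had 1 of 51 (1.96%, 0.347 to 10.3), 3.7 kb from Tfap2a, and nerve genes 1 of 25 (4%, 0.710 to 19.5), 12.6 kb from Ngfr. The intervals or limits of all 6 lists hold the 1.09% over all regions, so none can be told from it at these counts. Runx1 is also used outside blood, and Tfap2a outside epidermis, so these positions do not name a cell type.

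Outside the lists, the 10 genes with the most foot phalanx regions had 3 to 5 each. Lrmda, a gene mutated in a form of human albinism, had 5 of its 28 regions, all inside the gene. Epha4 also had 5, of 24, all between genes and 354.8 to 837.1 kb from its end. Of the other 19 regions at Epha4, 6, 13 and 8 were called in foot phalanges, against 7, 8 and 7 in hand phalanges, 11, 9 and 6 in metatarsals and 6, 13 and 6 in metacarpals. Of the 5 Epha4 regions 3 were shared with metatarsals of digit I and 1 with metatarsals of digit V. Uaca had 4 of its 15 regions, and of the other 11 foot phalanges called 6, 7 and 7, against 7, 4 and 4 in hand phalanges, 7, 5 and 6 in metatarsals and 7, 6 and 5 in metacarpals. At both genes the foot phalanges lists overlapped the others once the chosen regions were left out.

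Nfib, a nuclear factor I gene, Auts2 and Fat4 had 4 foot phalanx regions each, of 36, 35 and 30. Clint1, Sipa1l2, the guidance ligand gene Slit3 and the chemokine gene Cxcl12 had 3 each, of 23, 20, 53 and 25. The share of a gene's regions that were foot phalanx regions thus ran from 5.66% for Slit3 to 26.7% for Uaca. None of these genes was tested, as their regions had been chosen by their calls.

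The regions that ranked highest in all 3 foot phalanges lists were all kept at the common threshold and with lists of equal length. Both settings drop the least significant peaks of a list, so this follows largely from how these regions were picked. First came a region inside Pde3a at chr6:141495171-141496948, with −log10 p of 79.4, 100.6 and 83.0 in digits I, III and V and a lowest percentile rank of 45.8, shared with hand phalanges of digit III. Pde3a encodes a phosphodiesterase of cyclic AMP and cyclic GMP, and human mutations of it cause hypertension with brachydactyly. The second, nearest to the anion exchanger gene Slc26a7 at 228.0 kb, had 82.6, 90.8 and 65.6 and was called in no other list. The region inside Lpp, a focal adhesion gene, had 82.6, 83.1 and 64.6 and was shared with hand phalanges of digit I.

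Inside Frem2, which encodes a basement membrane protein lost in human Fraser syndrome with fused digits, the region at chr3:53596938-53600549 had 67.9, 106.6 and 130.7. It was also called in metatarsals of digit I. The other members of the 10 lay near Pik3r1, a regulatory subunit of PI3-kinase, near Apela, a ligand of the apelin receptor, near Igfbp4, which binds insulin-like growth factors, near the SoxC gene Sox11, near Arhgef28 and inside Parva. Of these only the Sox11 region, with 77.3, 73.8 and 58.2, was called in no other list. The 10 regions were thus mostly shared with 1 other list: 5 with hand phalanges, 3 with metatarsals and 2 with none.

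At protein-coding genes, 16 of the 17 regions within 1 kb of a start held it and the other, at Dlgap3, was 54 bp away. Car4, which encodes a membrane-bound carbonic anhydrase, had 2 foot phalanx regions and no other region. The one at its start had −log10 p of 39.5, 43.9 and 41.0 and was shared with metacarpals of digit V. The one 13.6 kb away had 61.9, 47.9 and 38.6 and was shared with metatarsals of digit III. Ccdc153 had a single region, at its start, with 49.4, 47.1 and 46.0, called in no other list. Ifitm1 had −log10 p of 48.5, 47.9 and 45.1 at its start, and the region was also called in hand phalanges of digit I. At Dlg4, the gene of the synaptic scaffold PSD-95, 58.0, 40.8 and 33.1 were reached, and at the RNA-binding protein gene Celf2 33.5, 38.5 and 47.7. The Dlg4 region was shared with hand phalanges of digit III and the Celf2 region with metatarsals of digit I.

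Other starts in these regions included those of Cnpy1, Ctdsp2, Gcnt2, Gja5 and Gm50595, with those of Plch2, Stra6 and Tfdp2 beside them. The Ctdsp2 region, at chr10:126994582-127002220, was the widest at 7639 bp and among the weakest in digit V, with −log10 p of 32.6, 57.0 and 28.6, the last at the end of its list. It also covers the hairpin of Mir26a-2. None of the genes named here for their starts belonged to the 14 gene lists.

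In base composition the promoters inside foot phalanx regions resembled the average promoter and not those of widely open regions. A total of 46 promoter windows of 39 genes, non-coding RNA genes included, overlapped 38 regions, of which 16 overlapped the window of a protein-coding gene. Their median GC content was 52.3% with 5 CpG, against 52.7% with 7 CpG over all 32851 promoters and 61.3% with 20 CpG in regions called in all 12 lists. Of the 39 genes 17 were protein-coding, against 17492 of 27025 genes over all promoters. Neither these medians nor the motif shares below were split by gene type. Of the 11 motifs searched on both strands, RUNX (TGTGGTT) was in 7 of 46 windows (15.2%), against 5.27% of all promoters. PITX (GGATTA) was in 10.9% against 7.06%, TEAD (GGAATG) in 17.4% against 14.7%, SOX (ACAATGG) in 4.35% against 3.66%, homeodomain (TAATTA) in 6.52% against 5.29% and FOX (TGTTTAC) in 4.35% against 3.65%. AP1 (TGANTCA) was in 6.52% against 7.81%, ETS (CCGGAAG) in 8.70% against 8.86%, TBX (AGGTGTG) in 2.17% against 5.84%, TCF (ATCAAAG) in 2.17% against 3.73% and HOX13 (TCGTAAA) in none against 0.597%. The 7 windows with the RUNX letters included those of Ctdsp2 and Avil, which share 1 region, and 5 of long non-coding RNAs. None of these 7 windows held a foot phalanges summit, and most of the 46 windows held none. The shares thus describe promoters that overlap the regions and not the centres of the peaks. The windows are few, some share a region or overlap each other, and a match of letters is not a bound site. Distal regions, which are most of the set, were not searched, because no genome sequence of the build was used here.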

How the data were processed

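ATAC-seq libraries of 12 groups were summarised by the authors as 1 peak list per group, called on pooled libraries per the peak names and selected by irreproducible discovery rate per the names of the lists. Per the submitters' processing notes MACS3, Picard 2.9.0 and Bowtie2 2.3.4.1 were used with mm10, in roles that are not stated. Trimming, filtering and any shift of reads to the transposase's cut site are not given in the sources used here. Such a shift is small beside peaks of this width. The authors deposited with each peak its −log10 p-value and −log10 q-value, its fold enrichment as a linear ratio, its score and where its summit lies. Lists ended at different −log10 p, so a missing call can be a peak below a threshold.

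Peaks sharing at least 1 bp were merged, and a list called a region if 1 of its peaks overlapped it. The members and the gene lists were chosen with earlier results of these data known. Gene bodies and promoters came from RefSeq tables of GRCm38.p6, whose coordinates are those of mm10. The promoter table gave 21263 starts for 17492 of 21900 protein-coding genes, and regions were assigned by gene ends up to 1 Mb away. No genome sequence was used, so the planned search at summits was limited to promoter windows.

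Named genes were listed genes with a member, the 10 genes outside the lists with most members, 10 genes with a start within 1 kb, the genes of the 10 members with the highest lowest rank, and 12 landmark genes; 1 listed gene is not reported here. The 7 promoters with all 3 summits inside were singled out after their values were seen. Lists are the units of the 2 exact permutation tests, so their p-values measure the spread between lists. The rule had capped the calls compared in these tests, so the p-values are descriptions. Groups came from the labels. No value per library was used and depth per library is unknown, so Wilson 95% intervals, and limits for a count of 0 (3 counts), cover counting error only. Alternatives changed the overlap, list length, window, margin, number of other lists, chromosomes, distance and single lists. A pair of common thresholds and a comparison of lists within digits were added after seeing the data. Merging and the rule were run on simulated lists and gave back the planted regions. The simulated lists did not end at different thresholds, so this checks the code alone. The permutation test was checked on fixed values. Python 3.11.15, pandas 2.3.3, numpy 2.4.6, scipy 1.17.1 and matplotlib 3.10.9 were used.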

Additional observations from a re-analysis of the deposited data

Results flagged for a closer look

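The metatarsal list of digit I held 27.8 foot phalanx regions per 10000 called regions, far from the other 5 metapodial lists, of which the next held 5.21. The gap was 0.821 of the range of the 6 lists, above Dixon's 95% critical value for 6 values, a limit that chance passes in about 1 of 20 groups. As the rule let a region count for 1 of the other lists alone, these values are not independent of each other, and the comparison is a description. The same list was called in 305 of the 517 regions shared with exactly 2 other lists. It ended at a −log10 p of 41.5, against 31.0 in the foot phalanges list of digit I. Whether the digit I tissue or the lists' thresholds have a part in this was not tested.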

How the results depend on the processing

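No paired analysis was possible because each list pools its 3 libraries and carries no replicate number; lists were blocked by digit instead, after seeing the data (exact permutation p 0.0741 for hand phalanges against metapodials and 0.889 for metatarsals against forelimb lists). The count of 712 foot phalanx regions became 303 with the more significant 50% of each list, 323 with no other list allowed, 1229 with up to 2, 223 at a common threshold within each digit and 193 at 1 threshold for all lists, the last pair chosen after seeing the data. Without 1 list at a time it ranged between 721 and 1350. The rule is looser with a list left out, so a higher count follows in part from that. It moved by less than 1.5 times with 50% coverage, 500-bp windows, autosomes alone, a 1 kb margin and equal length. With equal length the count was 511, but only 187 of the 712 regions themselves were kept.

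The excess of hand phalanges over metapodials kept its sign under all alternatives run, between 10.2 and 26.0 per 10000 without 1 list at a time (exact permutation p 0.0357 to 0.393, below 0.05 before adjustment only without the metatarsal list of digit I, 26.0). It was 4.52 with the more significant 50% (p 0.738), 5.86 at 1 threshold (p 0.214), 7.08 at the common threshold (p 0.0714) and 34.8 with up to 2 other lists (p 0.167). The excess of metatarsals over forelimb lists turned to −0.310 with equal length, −1.19 at the common threshold within each digit and −0.00935 at 1 threshold, and ranged from −1.58 (without metatarsals of digit I) to 12.6 without 1 list at a time, with −0.0191 without metacarpals of digit V. With no other list allowed neither comparison has a value. In every other alternative the rule capped the calls compared, so a kept sign describes the chosen regions. Leaving out a list also let in regions that the list had kept out, so the p-values without 1 list are descriptions too. The share near a gene start was 5.54% with the more significant 50%, 1.44% with equal length, 1.12% at 1 threshold and 6.41% within 5 kb, and ranged from 1.91% to 2.53% without 1 list at a time. Members at listed genes fell to 14, against 25, when gene bodies with 10 kb flanks replaced the nearest end. The causes were not tested.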
